A study of Mus musculus and Rattus norvegicus with 53 samples.

Results

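The genes described here were 10 markers of immature and repair Schwann cells (SCs): Ngfr, Gfap, Gap43, S100b, Nes, Vim, Apod, Olig1, Pax3 and Runx2. They were found by symbol among the 24016 genes of the mouse count data, and the list was drawn up with earlier results of these data known. SCs came from tdTom SC mice, male and female and aged 6 to 8 weeks at surgery, in which P0A-Cre switches on a Rosa26 tdTomato reporter, and tdTomato+ cells were sorted by FACS. P0A-Cre is active in the neural crest lineage, so the sort rests on a lineage that expressed Cre and not on a marker of the SC state. In the pooled experiment, SCs of intact nerves (iSCs), of the distal stump (dSCs) and of the bridge, the new tissue that joins the cut ends (bSCs), were taken 6 days after sciatic nerve transection. Each region had 4 libraries, each made from 3 mice. In the single-nerve time course there were 5 libraries of iSCs. The dSCs were taken on day 1 and then from day 2 to day 10 at intervals of 2 days, and the bSCs on the same days from day 4 on, with 3 libraries per region and day. The intact nerves were the uncut contralateral nerves of injured animals, so the study had no nerve from an uninjured animal in these groups. All groups carried the same reporter, and the comparisons address how the SC state changes after injury and whether it differs between the wound and the distal stump.

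After nerve injury, SCs that have lost axonal contact switch off myelin genes and return to a proliferative, progenitor-like state. In that state they express again several proteins of the immature SC of the developing nerve, and add repair functions such as trophic support, clearance of myelin and guidance of regrowing axons. Ngfr encodes the low-affinity neurotrophin receptor p75. Gfap, Nes (nestin) and Vim (vimentin) encode intermediate filaments. Gap43 encodes a growth-associated membrane protein, and S100b encodes a calcium-binding protein used to stain the whole SC lineage. Apod encodes apolipoprotein D, a secreted lipid carrier. Olig1, Pax3 and Runx2 encode transcription factors, of which Olig1 is best known from oligodendrocytes, Pax3 from the neural crest and early SCs, and Runx2 from bone.

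The genes lie apart in the genome. In build NCBIM37, Ngfr is at chr11:95430132-95449049 (minus strand), Gfap at chr11:102748650-102762226 (minus), Gap43 at chr16:42248555-42340764 (minus), S100b at chr10:75716598-75723904 (plus), Nes at chr3:87775000-87784373 (plus), Vim at chr2:13495554-13504453 (plus), Apod at chr16:31296278-31314894 (minus), Olig1 at chr16:91270014-91272184 (plus), Pax3 at chr1:78097842-78193709 (minus) and Runx2 at chr17:44632936-44951746 (minus). Gfap, S100b and Runx2 overlap other annotated genes, for S100b the gene Dip2a and for Runx2 among others Supt3h. The libraries did not keep the strand, so reads of overlapping genes could not be told apart by it.

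RefSeq promoters (GRCm38.p6, 250 bases before the transcription start, 5′ to 3′ on the strand of the gene) were found for 7 of the 10 genes. Those of 4 genes are shown because these genes carry the differences between regions described further on: Apod and Gfap differed between bSCs and dSCs, S100b was lower in bSCs, and Ngfr was higher than in iSCs in both injured regions. Capitals mark matches to the SOX letters ACAANG on either strand.
Apod promoter, chr16:31314809-31315058, minus strand: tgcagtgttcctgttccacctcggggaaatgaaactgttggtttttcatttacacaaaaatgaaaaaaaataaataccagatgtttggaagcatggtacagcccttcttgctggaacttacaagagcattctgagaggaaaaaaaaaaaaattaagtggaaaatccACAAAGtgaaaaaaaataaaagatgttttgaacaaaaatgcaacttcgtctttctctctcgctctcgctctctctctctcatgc
S100b promoter, chr10:76253586-76253835, plus strand: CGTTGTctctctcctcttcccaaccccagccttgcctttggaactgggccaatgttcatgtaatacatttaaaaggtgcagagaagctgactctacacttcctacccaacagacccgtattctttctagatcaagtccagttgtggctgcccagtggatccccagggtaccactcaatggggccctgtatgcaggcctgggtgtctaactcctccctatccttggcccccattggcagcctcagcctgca
Gfap promoter, chr11:102897201-102897450, minus strand: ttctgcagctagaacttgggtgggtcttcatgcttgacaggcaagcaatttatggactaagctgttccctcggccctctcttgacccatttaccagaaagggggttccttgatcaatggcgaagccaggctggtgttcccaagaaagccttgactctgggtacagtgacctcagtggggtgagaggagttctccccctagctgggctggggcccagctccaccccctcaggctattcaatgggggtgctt
Ngfr promoter, chr11:95587699-95587948, minus strand: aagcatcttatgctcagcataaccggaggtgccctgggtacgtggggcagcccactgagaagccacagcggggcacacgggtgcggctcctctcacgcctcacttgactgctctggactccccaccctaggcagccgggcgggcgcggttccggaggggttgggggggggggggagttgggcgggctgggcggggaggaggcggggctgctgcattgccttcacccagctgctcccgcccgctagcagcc
Apod and S100b each hold 1 such match, at 84 and 250 bases before the start, and Vim holds 1 at 12 bases before it. In all, 3 of 7 of these promoters hold a match, beside 36.3% of the 32851 promoters in the RefSeq table. The AP-1 letters TGANTCA (both strands) were in 0 of the 7 windows and in 6.75% of all promoters. A match is a run of letters and was not tested as a binding site.

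Between 11435463 and 22617054 counts fell on genes in the pooled libraries and between 9240883 and 22426128 in the single-nerve libraries. All values below are CPM, that is, counts scaled to the library total and to the TMM factors of edgeR, separately in each experiment. Only the CPM that stand for 3 counts leave the TMM factors out. The SC lineage markers Sox10, Erbb3, Foxd3 and Cdh19 had counts in every pooled library, with summed levels of 434–1373.2 CPM in iSCs, 229–546 CPM in dSCs and 218–506 CPM in bSCs. Markers of other cell types were also present. The summed level of 12 macrophage markers was 253–6115.2 CPM in iSCs, 10642.7–17656.5 CPM in dSCs and 2581.3–8078.0 CPM in bSCs, and that of 8 fibroblast markers was 11024.8–56823.7 CPM, 34352.1–50156.5 CPM and 19442.4–35277.7 CPM in the same order. No gene of these lists was at 0 throughout a group. The part of other cells in the results below was not tested, also where values of their markers are given. In libraries of sorted cells, fewer cells of a type and less RNA per cell cannot be told apart.

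In the single nerves 4 libraries stood apart from their labels or from the rest. The day 4 libraries labelled dSC replicate 1 and bSC replicate 1, from the same animal, were almost the same (chi-square per degree of freedom of 3.96, beside 47.9 for the next closest pair). A score of 166 genes higher and 386 genes lower by more than 2.5-fold in bSCs than dSCs of the pooled nerves, with the 10 markers left out, was 0.69 to 2.13 in 10 other dSC libraries of days 4 to 10 and 2.99 to 5.15 in 10 other bSC libraries. On this scale the library labelled bSC day 8 replicate 2 scored 0.628, among the dSCs, and the library labelled dSC day 10 replicate 0 scored 3.84, among the bSCs. The day 4 pair scored 1.54 and 1.53. Intact nerves scored 1.24 to 2.62, and dSCs scored 1.53 to 2.82 on day 1 and 2.03 to 3.59 on day 2. A high score was thus not confined to bridge libraries. Calls of the time course are given with these 4 libraries and, where a call changes, without them. The 4 were chosen after seeing the data, 2 of them by a score of the difference between bSCs and dSCs. Calls between bSCs and dSCs without them are therefore not independent of that choice.

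At 6 days after transection, 6 of the 10 genes differed between dSCs and iSCs in the pooled nerves. Ngfr, Nes, Vim, Apod and Olig1 were higher and Gfap was lower. In bSCs, Ngfr, Nes, Vim and Olig1 were higher than in iSCs too, but Apod and S100b were lower. Between bSCs and dSCs, Apod was lower and Gfap higher in bSCs. Of the 10 genes, 9 passed the filter on low counts and Pax3 did not. A gene was called where its p, adjusted over the 13751 genes tested with edgeR, was under 0.05. The 6 genes called between dSCs and iSCs stand beside 5.32% of all genes tested, the 6 called between bSCs and iSCs beside 14.7%, and the 2 called between bSCs and dSCs beside 5.43%. With the pool of mice as a block 1, 3 and 1 of the genes were called, and without single libraries 1 to 6, 4 to 6 and 1 to 2. Libraries of the 2 groups did not overlap for 7 genes between dSCs and iSCs, 6 between bSCs and iSCs and 3 between bSCs and dSCs, beside 17%, 25% and 15.4% of all genes. The median log2 fold change of the 9 genes was 2.65 for dSCs and 1.95 for bSCs against iSCs, while that of all genes was -0.02 and -0.16. Both comparisons used the same iSC libraries. Of the 12 macrophage markers, 3 were also higher in dSCs than iSCs (Cd68 by 3.08, C1qa by 2.93 and C1qc by 2.71 on the log2 scale), and their part in the marker values was not tested.

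**Figure D1:**
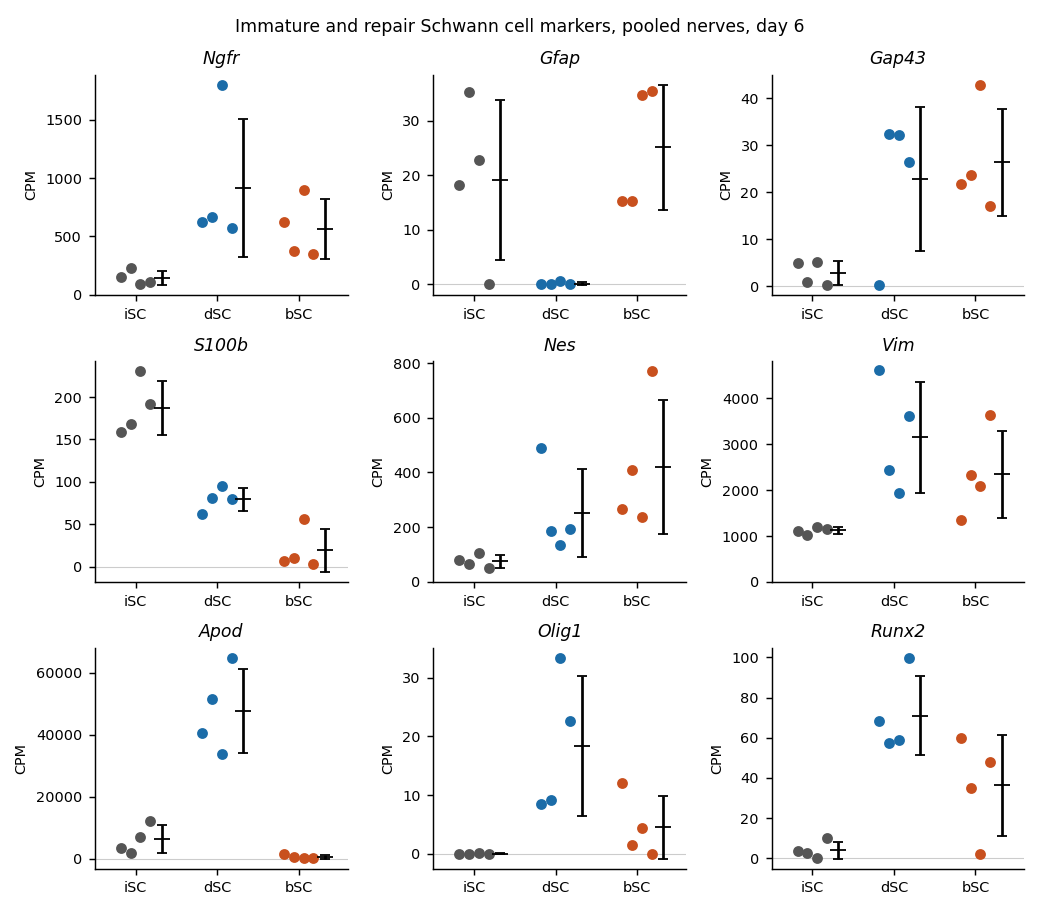
CPM of 9 markers (linear axes) in each pooled library, 1 point per library, with iSCs, dSCs and bSCs side by side and the mean ± SD of each group drawn beside its points. Apod is higher in all 4 dSC libraries (33872 to 64652 CPM) than in any bSC library (220.4 to 1512 CPM), and Gfap is at 0 in 3 of 4 dSC libraries.

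Ngfr, the p75 receptor, was at 152, 231, 92.5 and 108 CPM in the 4 pooled iSC libraries. It was at 628, 665, 1801 and 571 CPM in dSCs and at 627, 371, 899 and 351 CPM in bSCs. Every injured library was above every intact one, and the highest dSC library was far above the other three of its group. Ngfr rose 6.29-fold in dSCs (log2 fold change 2.65 ± 0.47 SE, adjusted p = 0.0056) and 3.86-fold in bSCs (1.95 ± 0.45, adjusted p = 0.0116). These calls were kept without any single library and with the pool of mice as a block. The regions overlapped, and bSCs against dSCs gave -0.71 ± 0.44 (adjusted p = 0.396).

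In the time course Ngfr was at 39.8, 45.5, 27.1, 127 and 61 CPM in intact single nerves. In dSCs it was at 58.6, 8.72 and 222 CPM on day 1, 91.8, 519.6 and 680.3 CPM on day 2, and 645, 447 and 831 CPM on day 4. Day 1 thus still overlapped the intact nerves and day 4 no longer did. It then stood at 1284, 1176 and 594 CPM on day 6, 1411, 1211 and 1286 CPM on day 8, and 521, 921 and 1388 CPM on day 10. In bSCs it was at 381, 440.5 and 53.6 CPM on day 4, 164, 924 and 547 CPM on day 6, 283, 151 and 1211 CPM on day 8, and 384, 226 and 883 CPM on day 10. The dSC values of day 8 lay close together, and the bSC values of every day spread several-fold. Against the intact nerves, Ngfr rose in dSCs by 3.41 ± 0.77 on day 4 (adjusted p = 0.0155), 4.08 ± 0.79 on day 6 (0.00874), 4.44 ± 0.80 on day 8 (0.00674) and 3.97 on day 10 (0.0203), all on the log2 scale. It rose in bSCs by 3.18 on day 6 (adjusted p = 0.0295) and 3.05 on day 10 (0.0364). The bSC calls were lost without any of several libraries: without iSC replicate 0, 1, 3 or 5, without bSC day 6 replicate 1 or 3 (adjusted p up to 0.222), and without bSC day 10 replicate 0 or 3 (up to 0.322). With DESeq2 size factors the day 10 call was lost (0.06875). Ngfr in bSCs of day 8 was called without iSC replicate 4 (3.69, adjusted p = 0.04296) or bSC day 8 replicate 1 (3.67, adjusted p = 0.04299), without the filter on low counts (0.04445) and with the filter of the study (0.04532). In dSCs the day 4 call was lost without dSC day 4 replicate 2 (adjusted p = 0.062) and the day 10 call without iSC replicate 0 or dSC day 10 replicate 3 (up to 0.0805).

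Bridge and distal stump of the same animal were both available in 11 animals, of which 10 have labels that agree. In the other, taken on day 10, the title of the bridge library gives another replicate number than its source name and animal, and it is paired with a dSC library that stood apart. Ngfr was lower in bSCs than in dSCs in 11 of 11 animals, and in 8 of 8 without the libraries that stood apart. The mean difference over days 4 to 10 was -1.05 ± 0.43 on the log2 scale (adjusted p = 0.403), and -1.63 ± 0.48 without those libraries (adjusted p = 0.0894), neither of which was called. The 11 animals include that of the day 4 libraries that were almost the same, at 440.5 CPM in bSCs and 446.8 CPM in dSCs. How many of all genes had the same direction in every animal was not counted, here or for the markers below.

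Among the intermediate filaments, Gfap differed from Nes and Vim. Gfap was at 18.2, 35.4, 22.9 and 0 CPM in pooled iSCs, at 0, 0, 0.517 and 0 CPM in dSCs and at 15.2, 15.3, 34.7 and 35.5 CPM in bSCs. All 4 dSC libraries together held 7 counts of Gfap, from 1 library, while the bSCs overlapped the intact nerves. Gfap fell in dSCs against iSCs (log2 fold change -7.13 ± 1.81, adjusted p = 0.0377) and was higher in bSCs than in dSCs (7.52 ± 1.84, adjusted p = 0.0325). Bridge against intact gave 0.40 ± 1.35 (adjusted p = 0.891). Both calls were lost with the pool of mice as a block (adjusted p = 0.1498 and 0.08553) and without single libraries: for dSCs against iSCs without iSC replicate 1, 2 or 4 or dSC replicate 1, 2 or 5 (up to 0.106), and for bSCs against dSCs without bSC replicate 3 or 5 or dSC replicate 1, 2 or 5 (up to 0.0855).

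The near absence of Gfap in distal SCs was not seen in single nerves. On day 6 it was at 27.4, 6.59 and 26.4 CPM in dSCs and at 19.8, 53.4 and 83.2 CPM in bSCs. Intact single nerves ranged from 0 to 41 CPM, with 2 of 5 libraries at 0. The dSCs had 35.9, 7.35 and 36.1 CPM on day 1, 0, 9.22 and 2.24 CPM on day 2, 9.89, 0 and 0 CPM on day 4, 6.38, 25.9 and 11.4 CPM on day 8, and 33.9, 23.4 and 0 CPM on day 10. Bridge values were 7.73, 0 and 0 CPM on day 4, 27.5, 34.1 and 0 CPM on day 8, and 52.1, 27.8 and 11.1 CPM on day 10. Zero values were thus scattered over all regions, and the intact, distal and bridge ranges overlapped. Gfap was called in 0 of 17 comparisons of the time course by edgeR, had an unadjusted p under 0.05 in 0 of them and was called in 0 by DESeq2. A total of 3 counts corresponds to 0.133–0.262 CPM in the pooled and 0.134–0.325 CPM in the single-nerve libraries, for counting error only. These ranges use the library totals without the TMM factors, so they are not on the scale of the other values.

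Nes was at 78.8, 66.6, 104 and 49.5 CPM in pooled iSCs, at 488, 187, 135 and 194 CPM in dSCs and at 266, 411, 238 and 770.1 CPM in bSCs. The intact libraries lay below all injured ones. Nes rose 3.36-fold in dSCs (1.75 ± 0.46, adjusted p = 0.0434) and 5.63-fold in bSCs (2.49 ± 0.47, adjusted p = 0.00349). The bridge call was kept with the pool as a block (adjusted p = 0.01291) and without any library, while the dSC call was lost with the block (0.06862), with the sequencing lane as a covariate (0.0909) and without iSC replicate 1, 2, 4 or 5 or dSC replicate 1, 2 or 5 (up to 0.139). The regions did not differ by the test (0.75 ± 0.45, adjusted p = 0.371).

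With all libraries, Nes was the only marker called in the single nerves on day 2, and none was called on day 1. Intact nerves had 26.1, 5.56, 45.9, 69.2 and 34.5 CPM, and dSCs had 45.2, 23.2 and 139 CPM on day 1 and 278, 287 and 302 CPM on day 2. The day 2 libraries lay within a narrow range above all intact nerves. Nes stayed at 159, 285 and 184 CPM on day 4 and 294, 196 and 154 CPM on day 6, and stood at 159, 139 and 122 CPM on day 8 and 103, 88.2 and 141 CPM on day 10. It rose by 2.99 ± 0.60 on the log2 scale on day 2 (adjusted p = 0.0135), by 2.53 on day 4 (0.0202) and by 2.56 on day 6 (0.0321), and the difference of day 8 (1.94 ± 0.59) did not pass the test (0.1996). In bSCs it was at 73.3, 279.8 and 41.1 CPM on day 4, 206, 110.2 and 111 CPM on day 6, 85.5, 84.6 and 144 CPM on day 8 and 174, 65.8 and 309 CPM on day 10. The bridge libraries overlapped the intact range on day 4 and on day 10, and Nes was called in bSCs on day 10 alone (2.33, adjusted p = 0.0387). The day 4 dSC call was lost without dSC day 4 replicate 1 (0.0863) and without the 4 libraries that stood apart (0.07244). The day 6 call was lost without iSC replicate 0, 1 or 5 or dSC day 6 replicate 0 or 1 (up to 0.19), and the day 10 bSC call without iSC replicate 0, 1, 3 or 5 or bSC day 10 replicate 0 or 3 (up to 0.356) and with DESeq2 size factors (0.08088).

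Vim was at 1104, 1027, 1203 and 1154 CPM in pooled iSCs, and at 4627, 2432, 1943 and 3621 CPM in dSCs. In bSCs it was at 1348, 2326, 2093 and 3628 CPM. The intact libraries lay within a narrow band below every injured library. Vim rose 2.81-fold in dSCs (1.49 ± 0.34, adjusted p = 0.0223) and 2.09-fold in bSCs (1.07 ± 0.33, adjusted p = 0.0466). Both calls were lost with the pool as a block (0.07783 and 0.1071), and the bSC call with the lane as a covariate (0.0732), with DESeq2 size factors (0.05342) and without the filter on low counts (0.05027). They were also lost without single libraries: in dSCs without iSC replicate 1, 2 or 4 or dSC replicate 1 or 5 (up to 0.0645), and in bSCs without any iSC library or bSC replicate 2, 3 or 5 (up to 0.1325).

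The single nerves put the highest Vim levels of dSCs on days 4 and 6. Intact nerves had 496, 488, 998, 699.9 and 631 CPM, and dSCs had 864, 787 and 1005 CPM on day 1, 1649, 1432 and 1594 CPM on day 2, 1367, 3493 and 3109.8 CPM on day 4, 3135, 2510.2 and 1792 CPM on day 6, 1624, 1076 and 1301 CPM on day 8, and 1064, 922 and 1654 CPM on day 10. From day 2 to day 8 no dSC library fell into the intact range. Vim was called in dSCs on day 4 (2.00 ± 0.37, adjusted p = 0.0033) and day 6 (1.90 ± 0.37, adjusted p = 0.00873). In bSCs it was at 1213, 3609 and 1359.7 CPM on day 4, 1542, 785 and 1360.2 CPM on day 6, 1159, 1437 and 2050.0 CPM on day 8 and 1384, 1114 and 1902 CPM on day 10. The bridge call of day 4 (1.64, adjusted p = 0.0169) rested on the library at 3609 CPM, bSC day 4 replicate 1, which is 1 of the 4 that stood apart, and without it the adjusted p was 0.26 (0.2652 without all 4). Without dSC day 6 replicate 0 the day 6 call was lost (0.0705).

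Gap43, the growth-associated protein of growth cones and of SCs without axons, was at 4.91, 0.916, 5.07 and 0.242 CPM in pooled iSCs. It was at 0.306, 32.3, 32.2 and 26.3 CPM in dSCs and at 21.8, 23.6, 42.9 and 17.1 CPM in bSCs. All 4 bSC libraries and 3 of 4 dSC libraries lay above the intact nerves, and dSC replicate 1 lay among them. Neither comparison with iSCs was called by edgeR (dSCs 3.03 ± 1.14, adjusted p = 0.174, and bSCs 3.24 ± 1.15, adjusted p = 0.0758), while DESeq2 called Gap43 in both.

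Intact single nerves had 0.279, 15.8, 4.49, 8.1 and 21.7 CPM of Gap43. The dSC libraries were at 3.61 to 13.2 CPM on day 1 and at 15.4 to 31.8 CPM on day 2, and from day 4 on between 6.51 and 92.2 CPM, with 36.2, 60.5 and 92.2 CPM on day 8. Bridge values were 9.08, 46.4 and 207 CPM on day 4, 28.2, 19.9 and 28.6 CPM on day 6, 33.6, 37.4 and 69.6 CPM on day 8 and 33.7, 11.6 and 31.4 CPM on day 10. The single call was that of bSCs on day 4 (3.12 ± 0.84, adjusted p = 0.0496), where 1 library overlapped the intact nerves and 1 was far higher. It was lost without iSC replicate 0, 1, 3 or 4 or bSC day 4 replicate 1 or 2 (adjusted p up to 0.564), without the 4 libraries that stood apart (0.09049) and with DESeq2 size factors (0.05365).

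S100b did not follow the other markers. It was at 159, 169, 230.2 and 192 CPM in pooled iSCs, at 62, 80.5, 95.4 and 80 CPM in dSCs and at 6.86, 9.73, 56.6 and 2.71 CPM in bSCs. The regions did not overlap, with intact nerves highest and bridge lowest. S100b fell in bSCs against iSCs (-3.31 ± 0.72, adjusted p = 0.00804), a call kept with the pool as a block (0.009186) and without any library. The dSC values were lower than the intact ones but not called (-1.24 ± 0.67, adjusted p = 0.408), and bSCs against dSCs gave -2.07 ± 0.69 (adjusted p = 0.0932). The last was called without bSC replicate 3, the library at 56.6 CPM (-3.61, adjusted p = 0.00362), and with the lane as a covariate (-2.65, adjusted p = 0.02503).

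In the single nerves, S100b was at 44.1, 58.5, 34.8, 54.3 and 31.6 CPM in intact nerves. The dSC libraries of days 1 and 2 held 21.2 to 37.4 CPM. They held 34.3, 80.3 and 47.1 CPM on day 4, 25.5, 26.1 and 10.5 CPM on day 6, 25.6, 8.55 and 13.4 CPM on day 8 and 2.07, 15.9 and 48.8 CPM on day 10, where the lowest value is that of the library that scored among the bSCs. Bridge libraries held 25.5, 89.2 and 3.55 CPM on day 4, 2.19, 7.78 and 0.643 CPM on day 6, 0.264, 0.586 and 29.7 CPM on day 8 and 7.19, 6.39 and 0.591 CPM on day 10. The values of 89.2 and 29.7 CPM belong to bridge libraries that stood apart, and the other 10 bSC libraries ranged from 0.264 to 25.5 CPM. With all libraries, the mean difference of bSCs from dSCs was -1.47 ± 0.60 (adjusted p = 0.396). S100b was then called in 0 of 17 comparisons of the time course by edgeR, had an unadjusted p under 0.05 in 4 and was called in 2 by DESeq2. With all libraries S100b was lower in bSCs in 8 and higher in 3 of 11 animals. Without the 4 libraries the mean difference was -3.02 ± 0.54 (adjusted p = 0.00345), and S100b was lower in bSCs in 8 of 8 animals. It then also fell against the intact nerves on day 8 (-6.70 ± 1.36, adjusted p = 0.0289), where 2 bSC libraries were left, at 0.264 and 0.586 CPM.

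Apod, the secreted lipid carrier, had the highest level and, in CPM, the largest difference between pooled dSCs and bSCs of these markers. In pooled iSCs it was at 3599.7, 1979, 7163 and 12249 CPM. In dSCs it was at 40599.7, 51442, 33872 and 64652 CPM. In bSCs it was at 1512, 444, 220.4 and 272 CPM, and no library of one region overlapped another. Apod rose 7.63-fold in dSCs (2.93 ± 0.69, adjusted p = 0.0263) and fell in bSCs (-3.35 ± 0.70, adjusted p = 0.00624). Bridge against distal stump gave -6.28 ± 0.80 (adjusted p = 0.00206), a call kept with the pool as a block (0.02385) and without any library (0.000756 to 0.0107). With the block, the comparisons with iSCs were lost (0.07462 for dSCs and 0.05703 for bSCs). The dSC call was also lost with the lane as a covariate (0.0518) and without iSC replicate 1, 2 or 4 or dSC replicate 1, 2 or 5 (up to 0.0928).

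Markers of fibroblasts moved the same way as Apod between bSCs and dSCs. Of 8 fibroblast markers, 3 were lower in bSCs, namely Pi16 (-4.47, adjusted p = 0.0258), Lum (-3.25, adjusted p = 0.00925) and Dcn (-2.88, adjusted p = 0.00918), and the summed levels of the list lay at 19442.4–35277.7 CPM in bSCs and 34352.1–50156.5 CPM in dSCs. None of the 8 was called between dSCs and iSCs, where Apod rose. Between bSCs and iSCs, where Apod fell, the same 3 were lower in bSCs. They were Pi16 (-4.73, adjusted p = 0.00867), Dcn (-2.93, adjusted p = 0.00216) and Lum (-1.95, adjusted p = 0.0299). In the single nerves of day 6, where Apod was at 45.7 to 255 CPM in bSCs and 12779 to 19555 CPM in dSCs, the summed fibroblast markers had the opposite order, at 45128.1–55651.7 CPM in bSCs and 27653.2–38970.6 CPM in dSCs. On day 10 they had the same order as Apod, at 17308.0–25654.4 CPM in bSCs and 37017.7–42917.4 CPM in dSCs, and on days 4 and 8 the regions overlapped. Over days 4 to 10 in the single nerves, 1 of the 8, Dcn, was called lower in bSCs (-1.16, adjusted p = 0.0232). The part of fibroblasts in the Apod values was not tested.

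Apod in the single nerves had 1725, 2873, 989, 1571 and 1639 CPM in intact nerves. The dSCs had 2238, 804 and 3540.3 CPM on day 1, 1652, 4214 and 3992 CPM on day 2, and 3460.1, 15378 and 7689.6 CPM on day 4. On days 1 and 2 they overlapped the intact nerves, and from day 4 on they lay above them with 1 exception. They reached 16595, 19555 and 12779 CPM on day 6 and 25583, 25600.5 and 19677 CPM on day 8. On day 10 they were at 53.6, 21656 and 39308 CPM, where the lowest is again the library that scored among the bSCs. Bridge libraries had 9513, 16007 and 76.3 CPM on day 4, 45.7, 255 and 131 CPM on day 6, 224, 109 and 30248 CPM on day 8 and 21, 590.0 and 552 CPM on day 10. The values of 16007 and 30248 CPM belong to bridge libraries that stood apart, but 9513 CPM does not.

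With all single-nerve libraries, Apod passed the test in 0 of 17 comparisons by edgeR, had an unadjusted p under 0.05 in 9 of them and was called in 4 by DESeq2. Bridge against distal stump over days 4 to 10 gave -3.45 ± 0.76 (adjusted p = 0.0558). Without bSC day 8 replicate 2 it gave -4.96 (adjusted p = 0.00142), and without dSC day 10 replicate 0 -3.62 (adjusted p = 0.01397). Without all 4 libraries it gave -5.14 ± 0.64 (adjusted p = 7.05e-05). With the animal as a block it gave -5.00, over the 10 animals with labels that agree, only 1 of them from day 10. That fit leaves out dSC day 10 replicate 0, which is 1 of the 4, and is no separate check on all libraries. DESeq2 called Apod with all libraries (3.901e-05). Without the 4 libraries, bSCs against dSCs gave -0.21 ± 1.14 on day 4 (adjusted p = 1), -6.78 ± 1.20 on day 6 (0.0177), -7.18 ± 1.47 on day 8 (0.17) and -6.38 ± 1.20 on day 10 (0.0271), so that days 6 and 10 were called. Without them Apod also rose in dSCs of day 8 against intact nerves (3.80 ± 0.85, adjusted p = 0.0406).

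**Figure D2:**
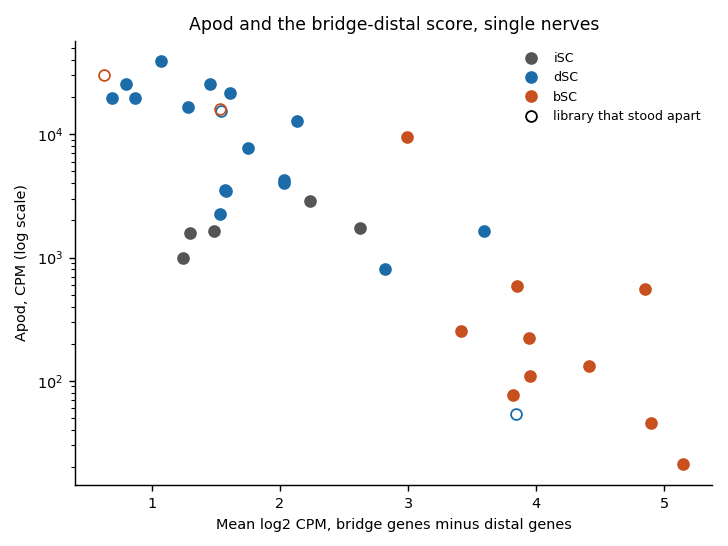
Apod in CPM (log scale) against the region score of the other genes in each single-nerve library, with iSCs, dSCs and bSCs in different colours and open circles for the 4 libraries that stood apart. The score is the mean log2 CPM of the genes higher in pooled bSCs minus that of the genes lower in them. The library labelled bSC day 8 replicate 2 lies among the dSCs at 30248 CPM and a score of 0.628, and dSC day 10 replicate 0 lies among the bSCs at 53.6 CPM and a score of 3.84.

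Of the transcription factors, Olig1 was close to absent in intact nerves and present after injury. In pooled iSCs 1 count was found in 1 of 4 libraries (0.0757 CPM). Olig1 was at 8.41, 9.21, 33.3 and 22.6 CPM in dSCs and at 12.1, 1.54, 4.47 and 0 CPM in bSCs. All dSC libraries and 3 of 4 bSC libraries lay above all intact ones. The ratio of summed counts to iSCs was 983 (95% exact interval 176 to 38847.7) in dSCs and 282 (50.3 to 11173.2) in bSCs, for counting error only. Olig1 rose in dSCs (adjusted p = 0.0172) and in bSCs (adjusted p = 0.0178). The calls were lost with the pool as a block (0.1446 and 0.1439), in dSCs without iSC replicate 1, 2 or 4 (up to 0.0658) and in bSCs without iSC replicate 1 or 2 (up to 0.0564).

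In single nerves, Olig1 had 1 count among the 5 intact libraries, and 0 counts in dSCs on day 2. It was at 0.594, 0 and 5.53 CPM in dSCs on day 1, 0.485, 2.85 and 0 CPM on day 4, 16.3, 0 and 31.2 CPM on day 6, 20.9, 22.3 and 30.5 CPM on day 8, and 0, 11.5 and 7.79 CPM on day 10. On day 8 all dSC libraries were well above the intact nerves. In bSCs it was at 0, 3.86 and 0 CPM on day 4, 0, 1.7 and 5.66 CPM on day 6, 0, 0.837 and 58.1 CPM on day 8 and 0 in all 3 libraries on day 10. The highest bridge value belongs to the library that scored among the dSCs. Olig1 was called in 0 of 17 comparisons of the time course by edgeR, had an unadjusted p under 0.05 in 10 of them and was called in 4 by DESeq2. Over days 4 to 10 the difference of bSCs from dSCs was -3.09 ± 1.26 with all libraries (adjusted p = 0.403), with bSCs lower in 6 and higher in 3 of 11 animals. It was -5.96 ± 1.49 (adjusted p = 0.0504) without the 4 libraries, with bSCs lower in 6 and higher in 1 of 8 animals.

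Runx2 was at 3.35, 2.7, 0 and 10.1 CPM in pooled iSCs, at 68.2, 57.6, 58.9 and 99.6 CPM in dSCs and at 59.9, 35.2, 2.06 and 47.8 CPM in bSCs. The dSCs did not overlap the intact nerves, and 1 bSC library did. The comparisons missed the threshold in edgeR (dSCs 4.14 ± 1.13, adjusted p = 0.0509, and bSCs 3.17 ± 1.08, adjusted p = 0.0665), and DESeq2 called both. Without iSC replicate 5, the intact library at 10.1 CPM, both were called (5.15, adjusted p = 0.02819, and 4.197, adjusted p = 0.03568), and so was the bSC comparison without bSC replicate 3 (3.61, adjusted p = 0.02629). The dSC comparison was also called without the filter on low counts (0.04388) and in a fit of the dSC and iSC libraries alone (0.03525).

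The time course gave Runx2 more calls than any other marker, 7 of 10 comparisons with intact nerves. Intact nerves had 0, 0, 0, 3.67 and 0.306 CPM. The dSCs had 5.45, 13.3 and 7.78 CPM on day 1, 4.63, 36.7 and 30.1 CPM on day 2, 61.7, 81.2 and 53.4 CPM on day 4, 115, 93 and 43.2 CPM on day 6, 115, 33.4 and 112 CPM on day 8 and 15.2, 33 and 107 CPM on day 10. Every dSC library, from day 1 on, was above every intact one. Runx2 rose in dSCs on day 4 (6.25 ± 1.24, adjusted p = 0.00572), day 6 (6.60, adjusted p = 0.00873), day 8 (6.65, adjusted p = 0.0094) and day 10 (5.91, adjusted p = 0.0234), all on the log2 scale. The bSCs had 57.5, 73.2 and 40.1 CPM on day 4, 63.3, 57.9 and 21.9 CPM on day 6, 23.1, 8.96 and 164 CPM on day 8 and 24, 0.468 and 3.44 CPM on day 10. It rose in bSCs on day 4 (6.04, adjusted p = 0.00695), day 6 (5.79, adjusted p = 0.0108) and day 8 (6.24, adjusted p = 0.0137), but day 10 overlapped the intact nerves. Without iSC replicate 4, the intact library at 3.67 CPM, Runx2 was also called in bSCs of day 10 (6.37, adjusted p = 0.008135) and in dSCs of day 1 (6.32, adjusted p = 0.02291) and day 2 (7.78, adjusted p = 0.001981). The day 8 call rested on bSC day 8 replicate 2, without which the adjusted p was 0.193 (0.234 without the 4 libraries), and the day 10 call in dSCs was lost without iSC replicate 0, 1 or 5 or dSC day 10 replicate 3 (up to 0.142). Runx2 was lower in bSCs than dSCs in 9 of 11 animals and in 8 of 8 without the libraries that stood apart. With the animal as a block, over the 10 animals with labels that agree, the mean difference was -1.86. Day 10 had only 1 of these animals, at 3.44 CPM in bSCs and 107 CPM in dSCs, and gave -5.08. Without the block, over all single-nerve libraries, the mean difference was -0.97 (adjusted p = 0.757). The 2 fits thus differ in their libraries as well as in the block.

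Pax3 had 0 counts in all 47 libraries. By the library totals alone, without the TMM factors, 3 counts would give 0.133–0.325 CPM over all libraries, for counting error only. With these factors the limit of what could have been missed is higher in some libraries. In dSC day 2 replicate 0 of the single nerves, 24 counts of Runx2 made 4.63 CPM.

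**Figure D3:**
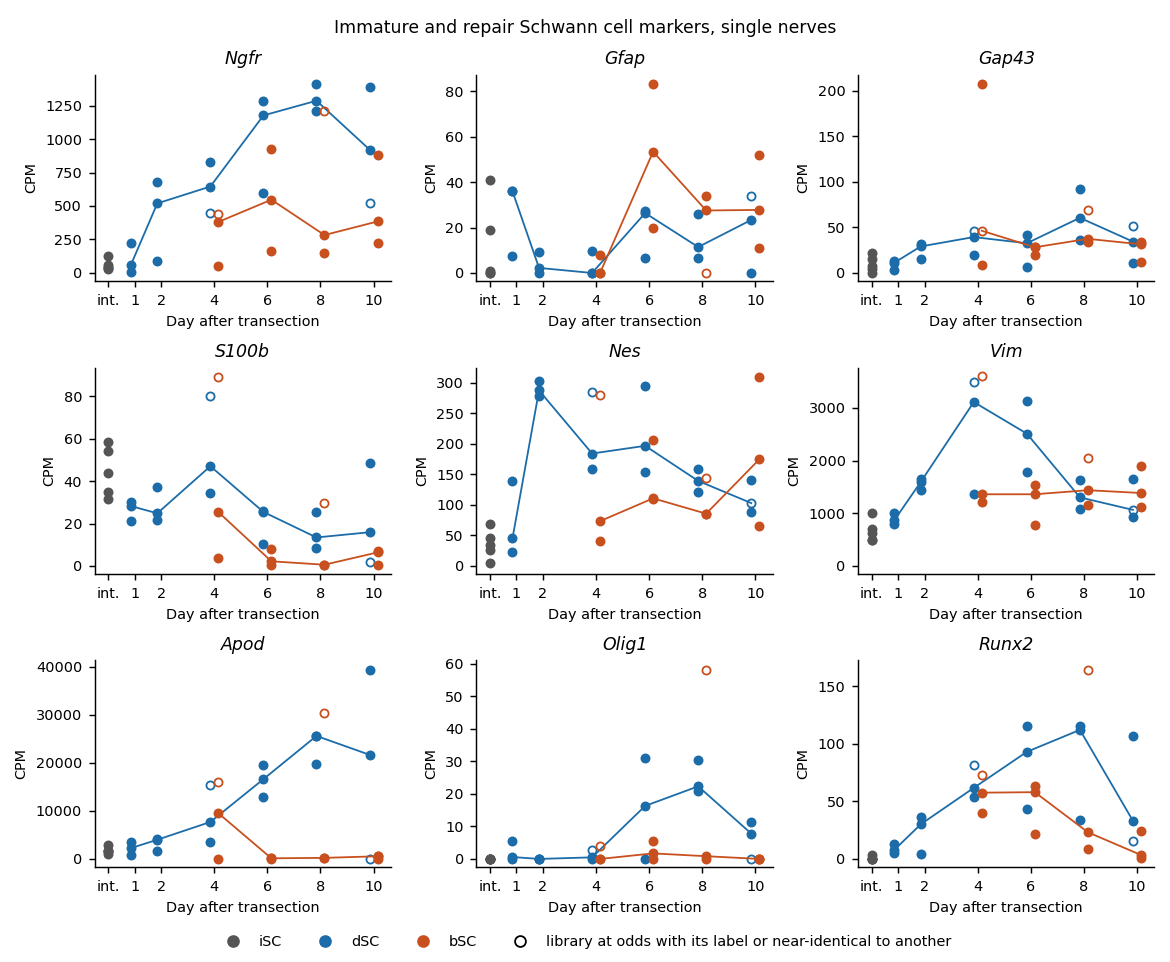
CPM of 9 markers (linear axes) in each single-nerve library by day after transection, with intact nerves (int.) to the left, dSCs and bSCs in different colours, lines through the median of each day and open circles for the 4 libraries that stood apart. Ngfr in dSCs goes from 8.72 to 222 CPM on day 1 to 1211 to 1411 CPM on day 8, and Runx2 lies above the intact nerves in every dSC library.

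Counted over all markers and days, 13 of 60 comparisons of dSCs with intact single nerves were called: 0 on day 1, 1 on day 2, 4 on day 4, 4 on day 6, 2 on day 8 and 2 on day 10, all of them higher. Over the 15519 genes tested, 0.18%, 0.445%, 1.73%, 0.554%, 0.303% and 0.354% were called on the same days. On day 1 edgeR gave 2 of the markers an unadjusted p under 0.05, beside 6.75% of all genes, and DESeq2 called none. In bSCs, 8 of 40 comparisons were called, with 3 on day 4, 2 on day 6, 1 on day 8 and 2 on day 10, beside 1.57%, 1.33%, 0.303% and 1.3% of all genes. Without the 4 libraries that stood apart, 13 of 60 dSC comparisons were called, with 0, 1, 3, 4, 3 and 2 by day, beside 0.106%, 0.331%, 0.786%, 0.462%, 0.368% and 0.162% of 16027 genes. Of the bSC comparisons 6 were then called, with 1, 2, 1 and 2 by day, beside 0.799%, 1.08%, 0.162% and 0.948%. The days share the intact libraries, so the calls of different days are not independent. Of 12 macrophage markers, dSCs had 3, 4, 12, 8, 2 and 3 called higher than intact nerves by day. For bSCs it was 9, 5, 3 and 8, and 0 were called lower in either region. Their summed level was 302–1357.7 CPM in intact nerves and 11457.2–14031.4 CPM in dSCs of day 4. At 1055.2–7878.8 CPM, bSCs of day 6 overlapped the intact nerves. The part of macrophages in the marker calls was not tested.

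Whether the dSC level depended on the day was tested among the 6 days without the intact nerves. By edgeR 0 of the 9 markers were called, beside 0.0644% of all genes, and 2 had an unadjusted p under 0.05, beside 6.86%. These were Ngfr (adjusted p = 0.585) and Vim (adjusted p = 0.497), and DESeq2 called Vim (adjusted p = 0.0155). Thus a call on one day and not on another does not show that those days differed.

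Bridge and distal SCs of the same day were compared in the single nerves for days 4, 6, 8 and 10. By edgeR 0 of 40 comparisons were called, beside 0% of all genes on day 4, 0.00644% on day 6, 0% on day 8 and 0.0129% on day 10. An unadjusted p under 0.05 was found for 0, 3, 0 and 2 markers on these days, beside 2.45%, 7.25%, 2.72% and 6.59% of all genes. DESeq2 called 3, which were Apod on days 6 and 10 and Olig1 on day 10. Without the 4 libraries 2 were called, Apod on days 6 and 10, where 0%, 0.0374%, 0.0187% and 0.0624% of genes were called on the 4 days. For the mean over the days, 0 markers were called, beside 0.103% of all genes, and 4 had an unadjusted p under 0.05, beside 9.01%: Ngfr, S100b, Apod and Olig1, all lower in bSCs. Without the 4 libraries, S100b and Apod were called, beside 1.21% of genes. The difference between regions was not shown to depend on the day, with 0 markers called beside 0% of all genes and 1 at an unadjusted p under 0.05 (Apod, adjusted p = 1) beside 3.14%, and DESeq2 called none.

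**Figure D4:**
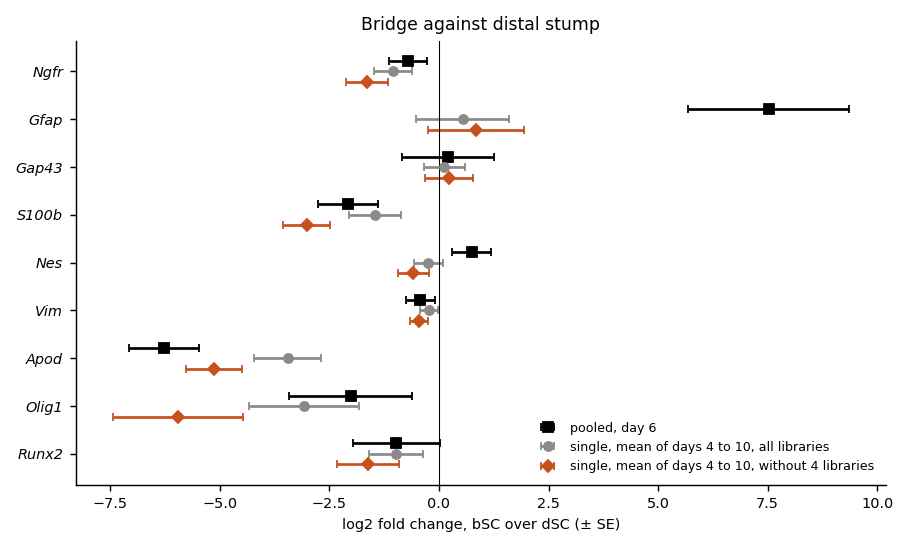
Log2 fold change of bSCs against dSCs with its SE for each marker, in the pooled nerves, in the single nerves over days 4 to 10, and in the single nerves without the 4 libraries that stood apart. Apod is lowest at -6.28 in the pooled nerves and lies at -3.45 and -5.14 in the single nerves, and Gfap is at 7.52 in the pooled nerves.

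The order of the levels among the markers changed with the region. As mean CPM per kilobase of exon in the pooled nerves, iSCs had Apod at 2424.5, Vim at 480, S100b at 126, Ngfr at 42.3, Nes at 11.6, Gfap at 4.53, Gap43 at 1.83, Runx2 at 0.456 and Olig1 at 0.00872. The libraries of each of the first 4 genes did not overlap those of the next in this order, and from Nes down neighbours overlapped. In dSCs the order was Apod (18487.2), Vim (1351.6), Ngfr (266), S100b (53.6), Nes (39.1), Gap43 (15), Olig1 (8.47), Runx2 (8.04) and Gfap (0.0306), so that Ngfr stood above S100b. In bSCs Vim was highest (1005.9), followed by Apod (238), Ngfr (163), Nes (65.6), Gap43 (17.3), S100b (12.8), Gfap (5.97), Runx2 (4.1) and Olig1 (2.09), and every gene but Nes overlapped its next neighbour.

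Other genes of the same states were counted in the pooled nerves. Of 12 other immature SC genes, 4 were lower and none higher in dSCs than iSCs, among them the adhesion molecule Ncam1 (-2.89, adjusted p = 0.0101) and N-cadherin, Cdh2 (-2.14, adjusted p = 0.0204). In bSCs 1 was lower, the immediate early factor Egr1 (-2.44, adjusted p = 0.0122), and against dSCs 2 were higher, Ncam1 (2.97, adjusted p = 0.0116) and L1cam (1.97, adjusted p = 0.036). Of 10 other repair genes, 3 rose in dSCs and 3 in bSCs. The growth factors Gdnf and Btc rose in both (Btc by 7.99 in dSCs, adjusted p = 0.000583, and by 6.98 in bSCs, adjusted p = 0.000453). Ccl2, a chemokine for monocytes, rose in dSCs (2.91, adjusted p = 0.0364), and both Ccl2 (-3.55, adjusted p = 0.019) and the injury factor Atf3 (-2.60, adjusted p = 0.0149) were lower in bSCs than dSCs. The median log2 fold change of the repair list was 2.85 in dSCs and 2.37 in bSCs, and that of the immature list was -0.45 and -0.09.

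Myelin genes fell together in both injured regions, with 9 of 10 lower in each. Among them were Mal in dSCs (-5.69, adjusted p = 0.00199), Drp2 in bSCs (-6.00, adjusted p = 0.00224) and Pmp22, a protein of compact peripheral myelin, in both (-5.60 and -5.26). None of the 10 was called between bSCs and dSCs. Of 8 other S100 genes tested, 0 were called in dSCs, while in bSCs S100a4 (1.61, adjusted p = 0.0349) and S100a10 (1.07, adjusted p = 0.0264) were among 3 that rose and S100a1 fell (-1.38, adjusted p = 0.0265). S100b thus fell in bSCs where S100a4 rose. Among 3 relatives of the transcription factors, Runx1 (2.54, adjusted p = 0.0133) and Cbfb (1.37, adjusted p = 0.0198), the partner of the RUNX proteins, rose in bSCs, and none was called in dSCs. Neither of 2 relatives of the filaments was called.

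For each marker, the genes with the most similar group means over the 11 single-nerve groups were found by Pearson correlation of log2 CPM, which is a description over groups that share intact libraries and days. Apod was most like A2m (r = 0.985), Cacna1c (0.956) and Rarres1 (0.944), Runx2 like Dlgap4 (0.986), Atp8b2 (0.976) and Ly9 (0.963), and Nes like Btc (0.938), Rassf1 (0.928) and Ubr3 (0.914). Btc is also in the list of repair genes above. Ngfr was most like Serinc5 (0.95), Dync1i2 and Ank3, Vim like Brd1 (0.939), B4galt6 and Picalm, and Gap43 like Vps11 (0.965), Cdr2l and Mfsd10. S100b was most like Polg2 (0.932), Ccdc173 and Mif4gd, Olig1 like Clca2 (0.936), Mmp2 and A730017L22Rik, and Gfap like Tbx3 (0.924), Nup54 and Kcnk10. Without the 4 libraries that stood apart, r was 0.991 for Apod with A2m, 0.923 for Nes with Btc and 0.707 for Gfap with Tbx3.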

How the data were processed

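SCs sorted by FACS from tdTom SC mice were profiled with Smart-seq2, which does not mark strand. The authors aligned the reads with TopHat2 2.0.11 to the mouse build mm9, counted them with HTSeq and deposited raw counts per gene, without normalization or filtering. HTSeq's own categories, 55.7–64.9% of reads, and spike-ins were set aside, and the lanes of a library, which differed by a chi-square per degree of freedom of at most 1.32, were added up. The groups and the animals were taken from the labels, and the deposited counts of rat cultures were not used here.

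Tests used edgeR 4.0.16 in R 4.3.3 with TMM, filterByExpr, the quasi-likelihood test and Benjamini-Hochberg adjustment over all genes tested, in 1 fit of the 12 pooled and 1 of the 35 single-nerve libraries. CPM were computed here from the counts and scaled by TMM. The scripts were checked on simulated counts. By the labels, libraries of 1 group came from different animals or pools of animals.

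The markers and the gene lists were chosen with earlier results of these data known. Named genes were the 10 markers, up to 3 called genes of each list with the largest absolute log2 fold change in the pooled comparisons, and the 3 genes most like each marker. Some genes of the myelin and SC lineage lists are not reported here, and their counts leave those genes out. Alternatives were DESeq2 1.42.0, its size factors, no filter, the filter of the study (at least 100 counts in 85% of libraries), lane as a covariate, replicate or animal blocks, leaving out each library and, chosen after seeing the data, leaving out 4 libraries.

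By the labels, libraries of the same pool or animal were paired. Their deviations from the group means had a mean correlation of -0.0143 over 10 pooled pairs and 0.146 over 11 single-nerve pairs, with 0.677 as the highest, for the day 4 libraries that were almost the same.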

Additional observations from a re-analysis of the deposited data

Results flagged for a closer look

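Of 36 gene and group combinations of 4 or 5 libraries, 7 had 1 library farther from the rest of its group than Dixon's 95% limit. For values without an outlier that limit is passed by about 1 in 20 groups, a rate that does not cover groups with counts at or near 0, from which 3 of the 7 come (Gfap and Olig1). Ngfr was at 1801 CPM in 1 pooled dSC library, with the others at 571 to 665 CPM, and Nes was at 488 CPM in another, with the others at 135 to 194 CPM. S100b was at 56.6 CPM in 1 pooled bSC library, with the others at 2.71 to 9.73 CPM. Gfap was at 0.517 CPM in 1 pooled dSC library with the others at 0. Runx2 was at 3.67 CPM in 1 intact single nerve, with the others at 0 to 0.306 CPM. The remaining 2 come from a single count of Olig1 in the intact nerves, at 0.0757 CPM in the pooled and 0.0509 CPM in the single nerves.

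The response to injury differed between bridge and distal stump for 2 genes in the pooled nerves by edgeR's test of bSCs against dSCs. The difference in log2 fold change against iSCs, bSCs minus dSCs, was -6.28 for Apod (adjusted p = 0.00206), which rose in dSCs and fell in bSCs. It was 7.52 for Gfap (adjusted p = 0.0325), which fell in dSCs, with 0.40 ± 1.35 in bSCs, and this call was lost with the pool of mice as a block (0.08553) and in 5 of 8 fits without single libraries (up to 0.0855).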

How the results depend on the processing

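Among the 85 gene results, of which 35 were called, 1216 values were recomputed under alternatives, and 1056 kept their direction and their side of the threshold, 103 lost a call, 53 gained one and 4 reversed. Pooled markers called were 6 for dSCs against iSCs (1 to 6 without single libraries), 6 for bSCs against iSCs (4 to 6) and 2 for bSCs against dSCs (1 to 2), and with the pool as replicate block 1, 3 and 1. In the single nerves 13 calls of dSCs against intact nerves (10 to 15 without single libraries) became 20 with DESeq2, and 8 of bSCs (4 to 9) became 18 with DESeq2 and 5 with its size factors. Same-day calls of bSCs against dSCs were 0 (0 to 0), and 3 with DESeq2 and 2 without the 4 libraries that stood apart. For the mean over days they were 0 (0 to 2), with 1 under DESeq2, its size factors or no filter, and 2 without the 4 libraries. Calls with the animal as replicate block are not counted here, since that fit held only 1 animal of day 10. The test among dSC days had 0 calls (0 to 0) and 1 with DESeq2, and the test of the region difference among days had 0 (0 to 0) throughout. Reversals against intact nerves were Olig1 in bSCs of day 4, at -1.35 without the 4 libraries and -1.34 to 7.25 without single libraries (lowest without bSC day 4 replicate 1), and Apod in bSCs of day 8, at -3.38 without the 4 libraries and -3.36 to 3.16 without single libraries (lowest without bSC day 8 replicate 2). DESeq2 gave no adjusted p for S100b in pooled bSCs against iSCs. DESeq2 size factors moved the median of all genes by over 0.1 in bSCs of day 10, by -0.21 against intact nerves and -0.12 against dSCs. Causes were not tested. Olig1 had 1 count in the intact nerves of each experiment and Gfap 7 in the pooled dSCs, so counting error is large at these levels.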
